A study of Macaca mulatta with 12 samples.

Results

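The classical and non-classical MHC class I genes of the rhesus macaque (symbols starting with MAMU-) and the genes that load peptide onto their products (TAPBP, TAP1, TAP2 and B2M) were read by 30 of the 52766 probe sets of an Affymetrix rhesus array. All probe sets whose listed symbol begins with the name of such a gene were taken. Of the 30, 24 carry 1 symbol, for 10 genes, and 6 carry several class I symbols. The genes were chosen by 2 readings in these same arrays. For MAMU-E, 1 probe set read lower with estrogen than with placebo. For TAPBP, 1 probe set read lower with estrogen than with estrogen plus progesterone. Those 2 contrasts and the interaction of the hormones are therefore given as descriptions, without a test. Tests were made between estrogen plus progesterone and placebo, progesterone and placebo, and estrogen plus progesterone and progesterone.

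RNA came from a block of the dorsal raphe, the brainstem region that holds serotonin neurons, of 12 female rhesus monkeys, 1 monkey per array. Each group had 3 monkeys, given estrogen plus progesterone, estrogen, progesterone or placebo through Silastic capsules placed under the skin for 1 month. Only the placebo titles include OVX, an abbreviation taken to mean ovariectomized, so whether the hormone-treated monkeys had also been ovariectomized is not stated in the labels used here. In the progesterone group, EP appears in the titles beside the word progesterone and P in the descriptions, and the group was treated as progesterone alone. Ages were not in the labels used here.

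MHC class I molecules, each a heavy chain with a light chain, present peptides from inside the cell to CD8 T cells and natural killer cells. B2M is the light chain shared by the class I heavy chains, TAP1 and TAP2 form the pump that brings peptides into the endoplasmic reticulum, and TAPBP (tapasin) bridges that pump and the empty class I molecule. In the brain, class I is strong on endothelium and microglia and is also made by some neurons, and interferons raise it in most cells. Macaque class I genes are highly polymorphic and vary in copy number, and their sequences are alike. Of the tested probe sets, 1 each of MAMU-A, MAMU-AG, MAMU-B, MAMU-E and MAMU-I and 1 with several symbols are of the kind whose probes can match other sequences (suffix x). A reading of one gene can therefore include others and can differ between monkeys by allele. The other tested probe sets of MAMU-B, MAMU-E and MAMU-I carry the suffix s, and are not taken to read 1 gene alone either.

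Values are log2 of the deposited intensity after quantile normalization, so a difference of 1 is a doubling. Of the 30 probe sets, 19 reached the median brightness of the array and were tested, 13 for class I and 6 for the loading genes. The other 11 were dimmer and were not tested. Their means over the 12 arrays ran from 2.71 to 6.09, while the bacterial control probe sets reached means of up to 5.60. They comprise 1 probe set each of MAMU-A and MAMU-E, 2 of MAMU-F, 1 of MAMU-I, 2 of TAP2, 1 of TAPBP and 3 with several symbols. For a gene with 2 tested probe sets, the brighter and the dimmer one are named so. The samples are bulk tissue, so fewer cells of a type and less RNA per cell cannot be told apart.

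Serotonin neurons were represented by TPH2, FEV, SLC18A2 and GCH1, which were all bright enough to test, while HTR1A was dim. Microarray medians before normalization ran from 71.1 to 98.6 intensity units. The first arrays of the estrogen plus progesterone, estrogen and placebo groups lay apart on the first principal component, at -44.0, -44.9 and -51.6, against -1.64 to 29.0 for the other 9 arrays. The 3 progesterone arrays lay apart on the second component, at -14.1, -46.3 and -54.5, against 0.50 to 20.4. Their difference between the 3′ and the 5′ control probe set of EF1A, a measure of RNA and labelling quality, was -0.37 to -0.31 on the log2 scale, against -0.08 to 0.74 in the other 9 arrays. The same measure overlapped for GAPDH (0.11 to 0.59 in the progesterone arrays and 0.34 to 1.11 in the others) and for ACTB (0.66 to 1.23 and 0.11 to 0.90). No scan date or other batch was given in the sources used here.

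No member passed limma's adjusted p of 0.05 in the comparisons of estrogen plus progesterone with placebo (0 of 19, against 0% of all 26383 probe sets tested), of progesterone with placebo (0 of 19, against 0.133%) or of estrogen plus progesterone with progesterone (0 of 19, against 0.0834%). At an unadjusted p under 0.05, limma called 2 of 19 in the first comparison (3.85% of all), 1 in the second (9.87%) and 1 in the third (11.4%). Among the alternatives tried, the 2 of the first were 1 with a replicate block and 0 after median alignment, on the deposited scale alone, with only the groups compared in the fit, and without the second or the third array of estrogen plus progesterone. The 1 of the second was 0 after median alignment, on the deposited scale alone, and without the second placebo, the third placebo or the first progesterone array. Some settings raised a count. That of the first was 3 without the first array of estrogen plus progesterone, and that of the third was 2 without the first progesterone array. Without the 3 first arrays that lay apart, the counts of the 3 comparisons were 1, 3 and 3. The median difference of the 19 members was -0.13 for estrogen plus progesterone against placebo, -0.01 for progesterone against placebo and -0.17 for estrogen plus progesterone against progesterone, beside -0.01, -0.02 and 0.01 over all probe sets tested. The median half-width of a 95% interval over all probe sets was 0.49.

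**Figure D1:**
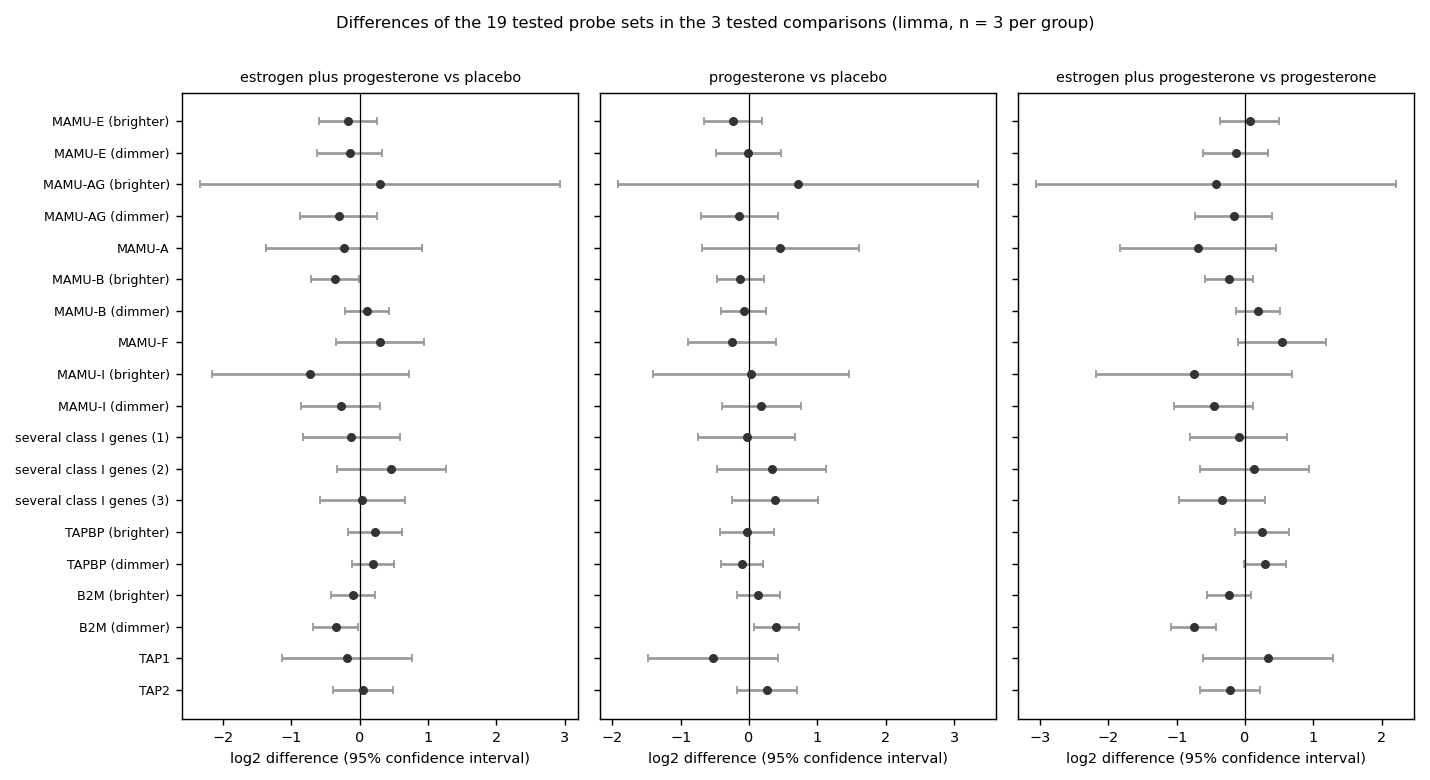
Log2 differences of the 19 tested probe sets (rows) in the 3 tested comparisons (panels), with 95% confidence intervals from limma, n = 3 arrays per group; "several class I genes" marks probe sets with several symbols, numbered by brightness. The interval of the dimmer B2M probe set for estrogen plus progesterone against progesterone, -1.08 to -0.43, is the one farthest from 0 for its width, and the intervals of the brighter MAMU-AG probe set are the widest.

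Among the class I heavy chains, MAMU-E is the macaque counterpart of human HLA-E, which presents signal peptides of other class I molecules to natural killer cells. Its dimmer probe set read 6.73, 6.82 and 7.30 in the estrogen plus progesterone arrays, 6.41, 5.89 and 6.65 in the estrogen arrays, 7.29, 7.09 and 6.89 in the progesterone arrays and 6.98, 7.21 and 7.11 in the placebo arrays. All 3 estrogen arrays lay below all 9 others, the nearest of them at 6.65 against 6.73. The group means were 6.95 ± 0.30 with estrogen plus progesterone, 6.31 ± 0.39 with estrogen, 7.09 ± 0.20 with progesterone and 7.10 ± 0.11 with placebo (SD, n = 3 each). The mean of the estrogen arrays was lower than that of the placebo arrays by a difference of -0.79, a factor of 1.73, and the mean of the estrogen plus progesterone arrays exceeded that of the estrogen arrays by 0.64. Without the second estrogen array these were -0.57 and 0.42. These 2 differences belong to the contrasts behind the choice of the genes and carry no test.

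The 3 tested comparisons reuse the estrogen plus progesterone and placebo arrays of the choosing contrasts. In them, the interval of the dimmer MAMU-E probe set included 0. Its difference was -0.15 for estrogen plus progesterone against placebo (95% interval -0.63 to 0.33), -0.01 for progesterone against placebo (-0.49 to 0.47) and -0.14 for estrogen plus progesterone against progesterone (-0.62 to 0.34).

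The brighter MAMU-E probe set did not show the low estrogen readings. It read 8.89, 8.44 and 8.27 with estrogen plus progesterone, 8.83, 8.60 and 8.29 with estrogen, 8.30, 8.68 and 8.41 with progesterone and 8.71, 8.73 and 8.66 with placebo. The estrogen readings spanned the placebo readings, and the difference of their means was -0.13. The remaining probe set of MAMU-E, too dim to test, read 3.69, 5.79 and 6.49 with estrogen plus progesterone, 5.04, 3.01 and 5.95 with estrogen, 6.59, 4.50 and 5.73 with progesterone and 6.36, 6.53 and 5.87 with placebo. Its groups overlapped.

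MAMU-AG, a non-classical class I gene that in macaques takes the place of HLA-G in the placenta, gave the widest spread of all members. Its brighter probe set read 10.31, 9.63 and 9.03 with estrogen plus progesterone, 5.26, 3.43 and 9.70 with estrogen, 9.35, 10.40 and 10.47 with progesterone and 10.01, 8.08 and 9.97 with placebo. The first and second estrogen arrays were low, and the third lay among the other groups. The pooled SD within groups was 1.76, above that of 99.97% of the probe sets tested, where the median SD was 0.28. The difference of means between estrogen and placebo, -3.22 with all arrays, was -1.87 without the second estrogen array and -5.01 without the third.

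The dimmer MAMU-AG probe set read 7.48, 7.10 and 6.88 with estrogen plus progesterone, 6.85, 6.95 and 6.79 with estrogen, 6.91, 7.39 and 7.66 with progesterone and 7.43, 7.02 and 7.93 with placebo. Its estrogen readings were all below its placebo readings, with means of 6.86 ± 0.08 and 7.46 ± 0.45. The brightest of the 3 tested probe sets with several class I symbols read 8.34, 7.97 and 7.54 with estrogen plus progesterone, 6.37, 6.38 and 7.62 with estrogen, 7.81, 8.12 and 8.19 with progesterone and 8.25, 7.76 and 8.21 with placebo. As on the brighter MAMU-AG probe set, its first and second estrogen arrays were the lowest of all. The third, at 7.62, was higher than these, but here it still lay below all placebo and all progesterone arrays. The symbols of these probe sets overlap, and they are not taken as independent readings. In the 3 tested comparisons their intervals all included 0, for example -2.33 to 2.94 for the brighter MAMU-AG probe set in estrogen plus progesterone against placebo.

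**Figure D2:**
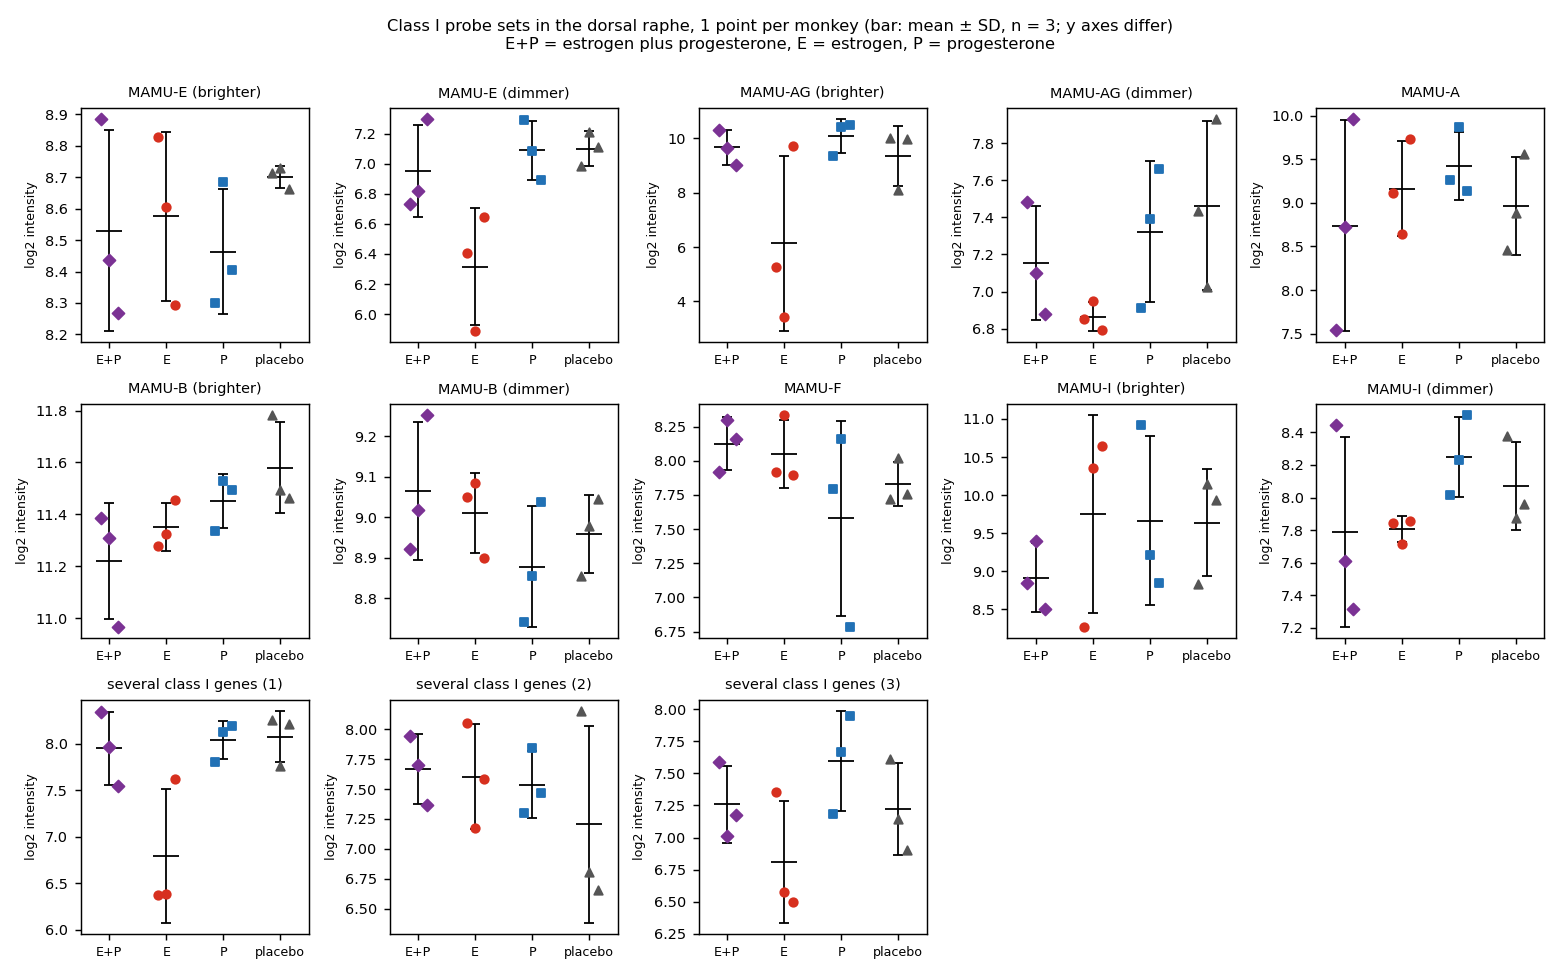
Log2 intensity of the 13 tested class I probe sets, 1 panel each, with 1 point per monkey in the estrogen plus progesterone, estrogen, progesterone and placebo groups; black marks are the mean ± SD (n = 3), and the y axes differ between panels. The dimmer MAMU-E panel shows the 3 estrogen points under all others, and the brighter MAMU-AG panel shows 2 low estrogen points at 5.26 and 3.43 and 1 at 9.70.

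MAMU-A and MAMU-B, the classical class I genes that present peptides to CD8 T cells, had 3 tested probe sets between them. The tested MAMU-A probe set read 7.54, 8.72 and 9.96 with estrogen plus progesterone, 9.11, 8.64 and 9.74 with estrogen, 9.26, 9.87 and 9.14 with progesterone and 8.45, 8.88 and 9.57 with placebo. The groups overlapped, and the pooled SD of 0.75 was above that of 96.6% of the probe sets tested.

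The brighter MAMU-B probe set read 11.39, 11.31 and 10.96 with estrogen plus progesterone, 11.28, 11.32 and 11.46 with estrogen, 11.33, 11.53 and 11.49 with progesterone and 11.78, 11.49 and 11.46 with placebo. Every array of estrogen plus progesterone was below every placebo array, and the difference was -0.36 ± 0.16 (SE; limma adjusted p = 0.999, unadjusted p = 0.0437). Without the third array of estrogen plus progesterone it was -0.23. The estrogen arrays were also all below the placebo arrays, by a difference of -0.23 in the means and with a highest estrogen value equal to the lowest placebo value at 2 decimals. The dimmer MAMU-B probe set did not share these low readings. It read 8.92, 9.02 and 9.25 with estrogen plus progesterone, 9.05, 9.09 and 8.90 with estrogen, 8.74, 8.85 and 9.04 with progesterone and 8.85, 8.98 and 9.04 with placebo, and its difference for estrogen plus progesterone against placebo was 0.10 (95% interval -0.22 to 0.43).

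MAMU-F, a non-classical gene like human HLA-F, read 7.92, 8.30 and 8.16 with estrogen plus progesterone, 7.92, 8.34 and 7.89 with estrogen, 7.79, 8.16 and 6.78 with progesterone and 7.72, 8.02 and 7.76 with placebo. The third progesterone array was the only low one, and the difference for estrogen plus progesterone against progesterone was 0.55 (95% interval -0.10 to 1.19). MAMU-I, a class I gene of the MAMU-B lineage, read 8.85, 9.40 and 8.51 with estrogen plus progesterone, 8.27, 10.36 and 10.64 with estrogen, 10.93, 9.21 and 8.85 with progesterone and 8.84, 10.14 and 9.94 with placebo on its brighter probe set. It varied within every group, with a pooled SD of 0.95, above 98.7% of the probe sets tested. Its dimmer probe set read 8.44, 7.61 and 7.32 with estrogen plus progesterone, 7.85, 7.71 and 7.86 with estrogen, 8.02, 8.23 and 8.51 with progesterone and 8.38, 7.87 and 7.96 with placebo. The estrogen readings of that probe set lay just below the placebo readings, the nearest pair being 7.86 and 7.87.

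The other 2 tested probe sets with several class I symbols overlapped between all groups. The brighter of them read 7.94, 7.70 and 7.37 with estrogen plus progesterone, 8.05, 7.17 and 7.58 with estrogen, 7.30, 7.84 and 7.47 with progesterone and 8.15, 6.81 and 6.65 with placebo. The dimmer read 7.59, 7.01 and 7.18 with estrogen plus progesterone, 7.35, 6.57 and 6.49 with estrogen, 7.18, 7.67 and 7.95 with progesterone and 7.61, 7.15 and 6.91 with placebo.

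Among the loading genes, the dimmer TAPBP probe set varied least within groups, with a pooled SD of 0.12. It read 7.41, 7.43 and 7.40 with estrogen plus progesterone, 6.89, 6.72 and 6.92 with estrogen, 7.25, 6.94 and 7.17 with progesterone and 7.37, 7.13 and 7.18 with placebo. After quantile normalization, the 3 arrays of estrogen plus progesterone lay above all 9 others, with a nearest pair of 7.40 against 7.37. The 3 estrogen arrays lay below all 9 others, with a nearest pair of 6.92 against 6.94. After median alignment, the first array of estrogen plus progesterone (7.31) lay below the first placebo array (7.37). There the third estrogen array (6.98) lay above the second progesterone array (6.91). On the deposited scale, the first estrogen array (7.02) lay above the second progesterone array (6.96). Over all probe sets tested, estrogen plus progesterone lay above all others in 0.455% and estrogen below all others in 0.28%, and nothing is read from these counts here. Means were 7.41 ± 0.01 with estrogen plus progesterone, 6.84 ± 0.11 with estrogen, 7.12 ± 0.16 with progesterone and 7.23 ± 0.13 with placebo (SD, n = 3 each). The estrogen plus progesterone readings were less close on other scales. They were 7.31, 7.49 and 7.43 after median alignment, and 7.48, 7.41 and 7.36 on the deposited scale. The mean with estrogen differed by -0.38 from that with placebo, and the mean with estrogen plus progesterone exceeded that with estrogen by 0.57, a factor of 1.49. Both differences belong to the contrasts behind the choice of the genes and carry no test.

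In the tested comparisons, which share arrays with those that chose it, the dimmer TAPBP probe set differed by 0.19 between estrogen plus progesterone and placebo (95% interval -0.12 to 0.50, limma adjusted p = 0.999) and by 0.30 between estrogen plus progesterone and progesterone (-0.01 to 0.60, limma adjusted p = 0.455). Between progesterone and placebo it differed by -0.11 (-0.42 to 0.20). The brighter TAPBP probe set read 8.21, 8.67 and 8.18 with estrogen plus progesterone, 8.22, 8.47 and 8.21 with estrogen, 8.21, 8.10 and 8.01 with progesterone and 7.94, 8.40 and 8.07 with placebo. Its groups overlapped, and its estrogen mean was above its placebo mean by 0.16, the opposite direction to that of the dimmer probe set.

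TAP1 read 5.84, 6.85 and 6.53 with estrogen plus progesterone, 5.27, 7.01 and 6.83 with estrogen, 6.27, 6.40 and 5.54 with progesterone and 6.99, 6.41 and 6.37 with placebo. The first array was the lowest in both estrogen-containing groups and the highest in the placebo group, and the difference for estrogen plus progesterone against placebo, -0.19, was 0.095 without the first array of estrogen plus progesterone and 0.010 without the first placebo array. The tested TAP2 probe set read 6.96, 7.17 and 7.02 with estrogen plus progesterone, 7.13, 6.74 and 6.87 with estrogen, 6.93, 7.18 and 7.68 with progesterone and 7.06, 7.13 and 6.80 with placebo. Its groups overlapped, and its difference for progesterone against placebo was 0.27 (95% interval -0.17 to 0.70), and 0.058 without the third progesterone array. In the RefSeq annotation of the assembly T2T-MMU8v2.0, TAP1 lies next to PSMB9 and TAP2 next to PSMB8, both genes of the immunoproteasome. PSMB8 was too dim to test here, and PSMB9 had no probe set named for it.

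**Figure D3:**
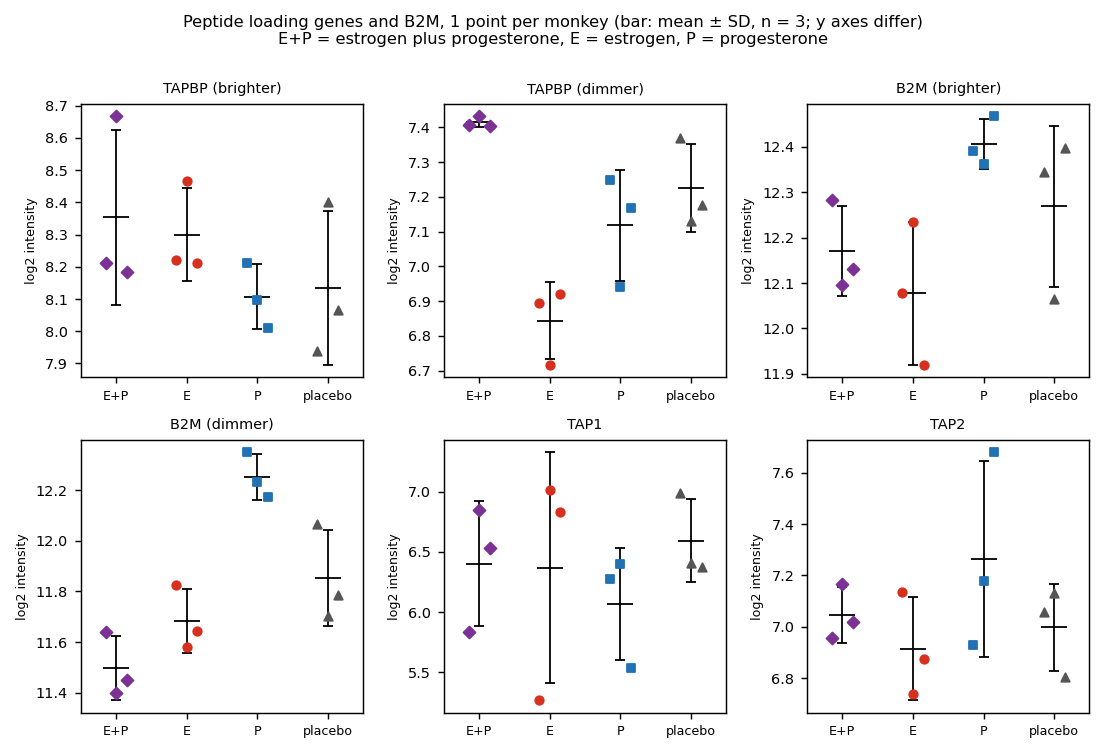
Log2 intensity of the 6 tested probe sets of TAPBP, B2M, TAP1 and TAP2, 1 panel each, with 1 point per monkey in the estrogen plus progesterone, estrogen, progesterone and placebo groups; black marks are the mean ± SD (n = 3), and the y axes differ between panels. The dimmer TAPBP panel shows the estrogen plus progesterone points together at 7.40 to 7.43, and the dimmer B2M panel shows the progesterone points above all others.

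B2M, the light chain of class I molecules, was the member with the largest tested difference relative to its error. Its dimmer probe set read 11.64, 11.40 and 11.45 with estrogen plus progesterone, 11.83, 11.58 and 11.65 with estrogen, 12.35, 12.23 and 12.17 with progesterone and 12.07, 11.70 and 11.79 with placebo. The 3 progesterone arrays lay above all 9 others, the nearest at 12.17 against 12.07. In 2.48% of all probe sets tested, the progesterone arrays lay above all others in this way. Means were 11.50 ± 0.13 with estrogen plus progesterone, 11.68 ± 0.13 with estrogen, 12.25 ± 0.09 with progesterone and 11.85 ± 0.19 with placebo (SD, n = 3 each).

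The dimmer B2M probe set differed by -0.75 ± 0.15 between estrogen plus progesterone and progesterone (SE; 95% interval -1.08 to -0.43, limma adjusted p = 0.112), a factor of 1.69. Between progesterone and placebo it differed by 0.40 ± 0.15 (0.07 to 0.73, limma adjusted p = 0.415), and between estrogen plus progesterone and placebo by -0.35 ± 0.15 (limma adjusted p = 0.999, unadjusted p = 0.0363). With each array's median aligned in place of quantile normalization the first difference was -0.52 (limma adjusted p = 0.556) and the second 0.20, beside a median of -0.12 over all probe sets for progesterone against placebo under that alignment. With a variance trend on intensity, limma's adjusted p of the first was 0.0316, the only setting tried that called a member. The lowest of the progesterone arrays, the third, read 12.17 after quantile normalization, 11.89 on the deposited scale without it and 11.64 after median alignment. On those 2 scales the first placebo array, at 12.09 and 12.11, lay above it. After median alignment, another placebo array (11.86) and every estrogen array (11.71, 11.77 and 11.86) also lay above that progesterone array.

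The brighter B2M probe set read 12.28, 12.10 and 12.13 with estrogen plus progesterone, 12.08, 12.23 and 11.92 with estrogen, 12.39, 12.36 and 12.47 with progesterone and 12.34, 12.07 and 12.40 with placebo. All 3 progesterone arrays were above the 3 arrays of estrogen plus progesterone, with a difference of -0.24 for estrogen plus progesterone against progesterone (95% interval -0.56 to 0.09, limma adjusted p = 0.571), which was 0.073 after median alignment. The progesterone arrays that carried the high B2M readings also had the low EF1A control values and the separate place on the second principal component given above. Of 12 tested microglial markers, 9 had lower means with estrogen plus progesterone than with progesterone, with a median difference of -0.23, and 0 passed limma's adjusted p. P2RY12, a microglial receptor, differed by -0.99 (limma adjusted p = 0.278), PTPRC, a marker of leukocytes and microglia, by -0.96 (adjusted p = 0.294) and CX3CR1, a microglial chemokine receptor, by -0.54 (adjusted p = 0.291). Of 7 tested endothelial markers, 5 had higher means with estrogen plus progesterone than with progesterone, with a median difference of 0.15, and 0 passed. The part of these values in the B2M readings was not tested.

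The groups of 3 arrays did not overlap in 3 of 19 members for estrogen plus progesterone against placebo (10.5% of all probe sets), namely the dimmer TAPBP probe set, higher, and the brighter MAMU-B and dimmer B2M probe sets, lower. They did not overlap in 1 member for progesterone against placebo (15.3% of all), the dimmer B2M probe set, and in 3 for estrogen plus progesterone against progesterone (17% of all), the dimmer TAPBP probe set and both B2M probe sets. The members' shares in these comparisons were 15.8%, 5.26% and 15.8%, near or below the background for a set of 19. For estrogen against placebo, a contrast behind the choice of the group, 6 of 19 were without overlap, all lower (7.54% of all probe sets in either direction, 3.98% lower). For estrogen plus progesterone against estrogen, 2 of 19 were without overlap, both higher (8.09% of all in either direction). Nothing is read from these 2 contrasts.

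Whether the 2 tested probe sets of a gene moved together was examined for 6 genes over the 12 arrays. Each pair shares its arrays and their normalization. Pearson's r was 0.68 for B2M (permutation p = 0.0161, Benjamini-Hochberg adjusted p = 0.0869 over the 6 pairs) with Spearman's rho of 0.57 (adjusted permutation p = 0.110), and r was also 0.68 without the 2 arrays farthest from the median. It was 0.52 for MAMU-AG (adjusted permutation p = 0.140, rho 0.69 with adjusted permutation p = 0.106). For MAMU-B it was -0.64 (adjusted permutation p = 0.0869, rho -0.59 with 0.110). Without the 2 farthest arrays it was -0.16, so the size of r depended on those. For MAMU-E r was -0.26 and rho -0.29, for MAMU-I -0.15 and -0.06, and for TAPBP -0.07 and -0.17, with adjusted permutation p-values for r of 0.643, 0.772 and 0.823. Within the groups, r was 0.32 for B2M, 0.26 for MAMU-AG, -0.62 for MAMU-B, -0.51 for MAMU-E, -0.33 for MAMU-I and -0.34 for TAPBP. These values include the readings that chose MAMU-E and TAPBP, and an r that misses the threshold over 12 arrays does not show that 2 probe sets are unrelated.

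**Figure D4:**
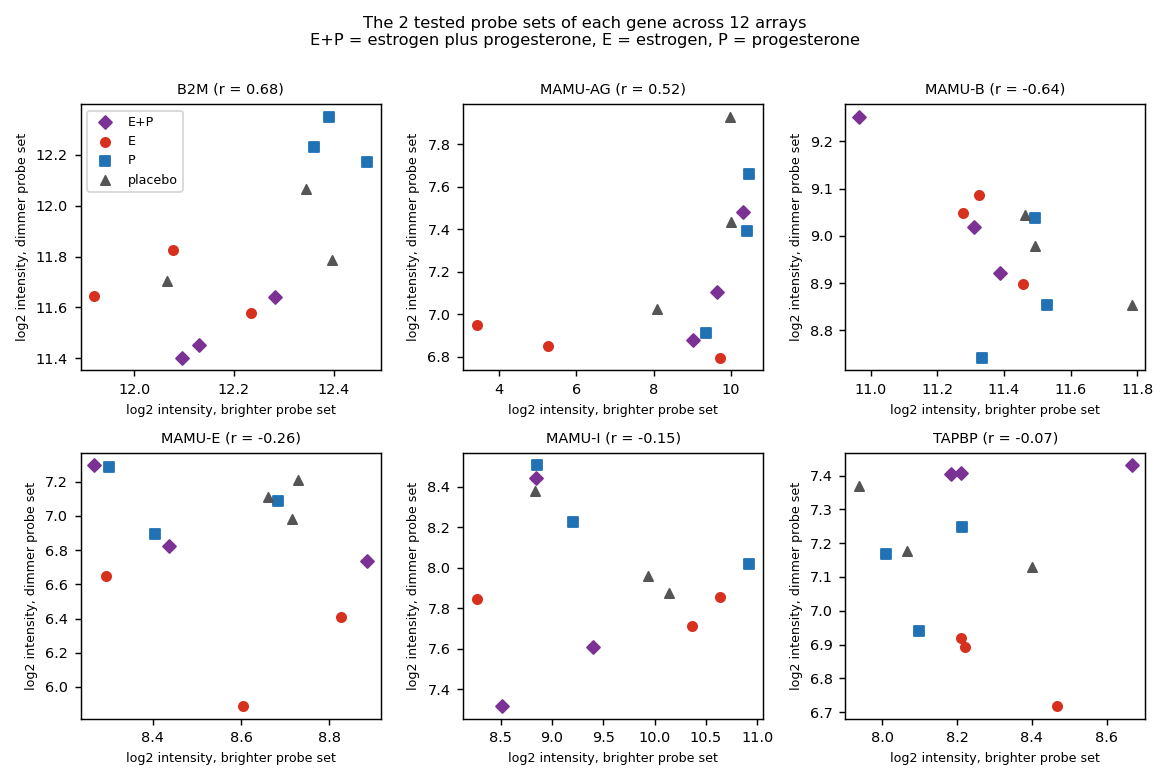
Log2 intensity of the dimmer against the brighter tested probe set of 6 genes, with 1 point per array (n = 12) coloured by group and Pearson's r in each title. The B2M points rise together (r = 0.68), while those of TAPBP (r = -0.07) and MAMU-E (r = -0.26) do not.

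By likeness of pattern over the 12 arrays, and among 15004 named probe sets, the genes closest to the brighter MAMU-E probe set were SRPRA (Pearson's r 0.93), WEE1 (0.90), SYTL2 (0.89), FCHSD1 (0.88) and ZFP42 (0.88). Those closest to the brighter TAPBP probe set were ELAC2 (0.85), KLHDC10 (0.82), AKNA (0.81), KIF20B (0.80) and MGARP (0.80). These are the highest of many correlations over 12 points that share normalization, and are given as a description.

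The genes around the class I pathway were read from lists, on the brightest tested probe set of each gene, and 0 genes of any list passed limma's adjusted p of 0.05 in the 3 tested comparisons. Of genes that supply, trim and fold for class I, 7 of 14 were tested, with medians of 0.08 for estrogen plus progesterone, 0.01 for estrogen and -0.12 for progesterone, each against placebo. PDIA3 (ERp57, a partner of tapasin in the loading complex) read 10.21, 10.27 and 10.38 with estrogen plus progesterone, 10.21, 10.21 and 10.27 with estrogen, 9.79, 9.57 and 10.06 with progesterone and 10.29, 10.07 and 10.41 with placebo. Its progesterone readings were all below the others, with a difference of -0.45 from placebo (limma adjusted p = 0.382). PSMB10, an immunoproteasome subunit, differed by -0.50 between progesterone and placebo (limma adjusted p = 0.432), PSME2, a proteasome activator subunit, by -0.10 and the chaperone CANX by -0.12.

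Of the interferon signalling genes and class I regulators, 9 of 19 were tested, with medians of -0.05 for estrogen plus progesterone, -0.04 for estrogen and -0.05 for progesterone, each against placebo. IRF2, an interferon regulatory factor, differed by -0.67 between progesterone and placebo (limma adjusted p = 0.381), and RFXAP, a subunit of the RFX complex that drives MHC genes, by 0.42 (0.537). Of 25 interferon-stimulated genes, 16 were tested, with medians of 0.17 for estrogen plus progesterone, -0.12 for estrogen and 0.16 for progesterone, each against placebo. Over the brightest probe sets of all 9959 genes, the medians lay between -0.04 and 0.00. IFI35 differed by 0.29 and IFITM1 by 0.37 between estrogen plus progesterone and placebo, and GBP2 by -0.71 between progesterone and placebo, and none passed.

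The class II genes, which present peptides from outside the cell and are made in the brain mainly by microglia and macrophages, were tested for 7 of 16 genes. Their medians were -0.55 with estrogen plus progesterone, -0.31 with estrogen and -0.06 with progesterone, each against placebo. Of the 7 means, 2 were higher and 5 lower with estrogen plus progesterone, 7 were lower with estrogen, and 3 were higher and 4 lower with progesterone. MAMU-DQA1, a class II alpha chain, read 8.13, 8.39 and 7.65 with estrogen plus progesterone, 9.12, 8.23 and 8.68 with estrogen, 8.12, 9.12 and 7.88 with progesterone and 9.63, 9.29 and 8.57 with placebo. The arrays of estrogen plus progesterone were all below those of placebo, with a difference of -1.11 that did not pass (limma adjusted p = 0.999). CD74, the invariant chain of class II, differed by -0.49 and MAMU-DMA, a class II peptide exchange factor, by -0.55, while MAMU-DOA, a modulator of that exchange, differed by 0.17. Summed intensities, here and below, cover every measured gene of a list, including those too dim to test. For the 9 measured class II genes the sum was 1560 to 2514 with estrogen plus progesterone, 2087 to 3059 with estrogen, 2180 to 2952 with progesterone and 2398 to 3372 with placebo. Of the class I-like genes, 5 of 10 were tested, with medians of -0.30 for estrogen plus progesterone, -0.19 for estrogen and -0.48 for progesterone. FCGRT, the heavy chain of the neonatal Fc receptor, which pairs with B2M, differed by -0.54 between progesterone and placebo (limma adjusted p = 0.222), and HFE, a class I-like regulator of iron uptake, by -0.73 between estrogen plus progesterone and placebo. Of the class I receptors, 5 of 10 were tested, with medians of 0.12 for estrogen plus progesterone, 0.09 for estrogen and 0.08 for progesterone.

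Of the markers of other cells, microglia were tested for 12 of 15 genes, with medians against placebo of -0.13 for estrogen plus progesterone, -0.03 for estrogen and 0.09 for progesterone. Summed intensities of the 13 measured genes were 4735 to 5566 with estrogen plus progesterone, 5364 to 5810 with estrogen, 5293 to 6329 with progesterone and 4998 to 6990 with placebo. The microglial marker TMEM119 was dim. For T, B and natural killer cells only 2 of 12 genes were bright enough to test, CD8A and CD4, and CD8B, GZMB, NKG7, CD79A and MS4A1 were dim. Endothelial markers were tested for 7 of 10 genes, with VWF and FLT1 dim, and had medians against placebo of -0.01 for estrogen plus progesterone, -0.14 for estrogen and -0.11 for progesterone, where 1 mean was higher and 6 were lower. Between progesterone and placebo, ABCB1, an efflux pump of the blood-brain barrier, differed by -0.58 (limma adjusted p = 0.339) and CDH5, an endothelial adhesion protein, by -0.82 (limma adjusted p = 0.432). Serotonin neuron genes, tested for 4 of 7, gave means in progesterone below those in placebo for 4 of 4, with a median of -0.47. Summed intensities of the 5 measured genes were 2050 to 2743 with estrogen plus progesterone, 2408 to 3448 with estrogen, 1518 to 2102 with progesterone and 2106 to 3186 with placebo. Markers of cerebellar neurons, tested for 5 of 9 genes, had medians against placebo of 0.16 for estrogen plus progesterone, 0.56 for estrogen and 0.15 for progesterone. The summed intensity of the 7 measured cerebellar genes was 1467 to 2408 with estrogen plus progesterone, 1461 to 3448 with estrogen, 1769 to 2030 with progesterone and 1488 to 1866 with placebo. The highest sum was in the second estrogen array, which also had the lowest readings of the dimmer MAMU-E (5.89) and brighter MAMU-AG (3.43) probe sets. The lowest sum (1461) was in the first estrogen array, which had the next lowest readings of these 2 probe sets (6.41 and 5.26). Of the other lists, the medians for estrogen plus progesterone, estrogen and progesterone against placebo were 0.01, 0.03 and -0.02 for 5 astrocyte genes, -0.07, -0.23 and -0.12 for 4 oligodendrocyte genes, 0.04, 0.19 and 0.09 for 3 neuronal genes and 0.38, -0.06 and 0.68 for 2 red blood cell genes. The part of these cell type markers in the class I values was not tested.

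**Figure D5:**
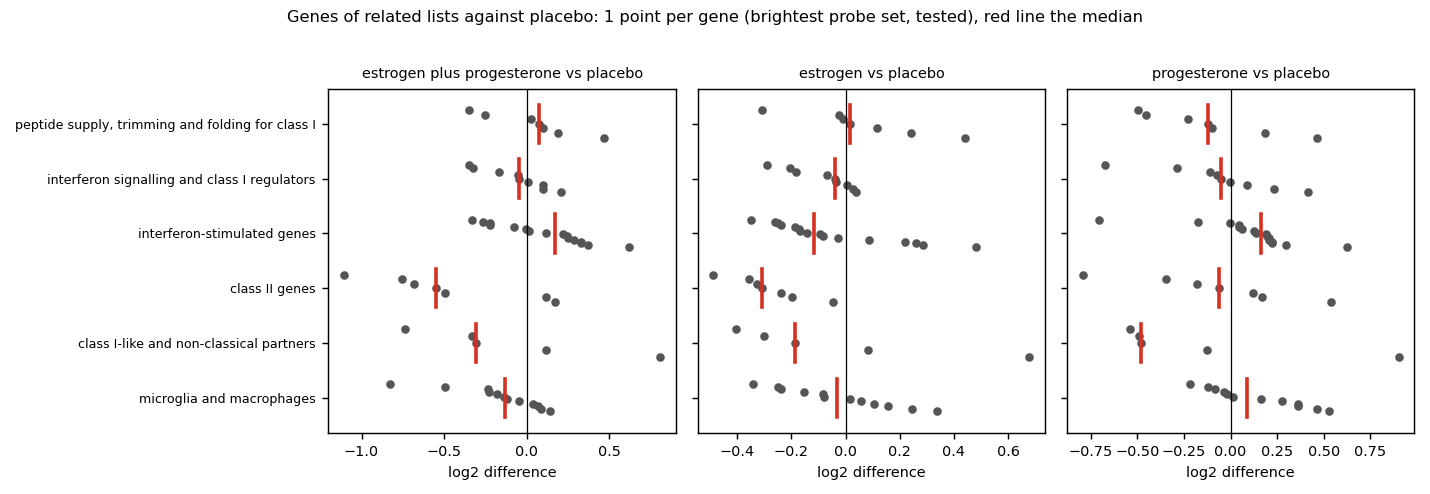
Log2 differences against placebo of the tested genes of 6 lists, for estrogen plus progesterone, estrogen and progesterone (panels), with 1 point per gene on its brightest probe set and a red line at the list's median; the x axes differ. The class II median is -0.55 with estrogen plus progesterone, and the interferon-stimulated medians are 0.17, -0.12 and 0.16.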

How the data were processed

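RNA of 12 dorsal raphe blocks was read on an Affymetrix rhesus array, 1 monkey per array. Per the labels, total RNA was extracted with Trizol, purified on RNeasy columns and labelled with biotin using an Enzo kit. Each probe set has 1 deposited value per array, a linear intensity, which the authors had brought to a common level: with 2% trimmed from either end, every array averaged 200.0. The software and the background correction are not given in the sources used here.

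After removal of 99 controls from 52865 probe sets, the deposited intensities were raised to at least their 5th percentile (4.99), transformed to log2 and quantile normalized, since array medians spanned 6.15 to 6.62. The 26383 probe sets at or above the median of the means (6.31) were fitted with limma 3.58.1 in R 4.3.3, with a mean for each group and all 12 arrays in the model (residual df 8, prior df 3.54), with two-sided tests and Benjamini-Hochberg adjustment over all of them. Correlations used permutation tests in Python 3.11.15 with scipy 1.17.1, and figures matplotlib 3.10.9. In a simulation of the progesterone and placebo comparison on 26383 probe sets, 38%, 78%, 90% and 98% of 50 probe sets each were recovered at log2 changes of 1, 1.5, 2 and 3. Its values were drawn independently from normal distributions, without arrays lying apart, so the shares may not hold for the real arrays. All tested differences of the members were smaller than 1 in size. The number of arrays limits the precision. Nothing in the labels names separate batches, and 0 columns were left unmapped.

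Members are the probe sets whose first listed symbol is a class I MAMU- gene, TAPBP, TAP1, TAP2 or B2M, and 2 further class I probe sets listed first under a locus number were left out. Names came from the GEO platform annotation, which gives 1 symbol for 24956 probe sets, several for 361 and none for 27449. Of the 10 gene IDs, 8 matched the RefSeq table of T2T-MMU8v2.0 with the same symbol, and MAMU-B and MAMU-I were not matched and kept the file's name. From that table only names and the order of neighbouring genes were used, and no coordinates or sequences. Every member is accounted for, with values per array for its brightest probe set and any past an unadjusted p of 0.05. The 5 named genes most correlated with the brightest probe set of MAMU-E and of TAPBP, and up to 4 genes per list with the lowest p, were named. The members and lists were chosen with earlier results of these data known.

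The titles number the arrays of each group from 1 to 3, with 1 monkey to a chip. Deviations of same-numbered arrays correlated by 0.103 to 0.274 between estrogen plus progesterone and placebo. They correlated by 0.142 to 0.507 between estrogen plus progesterone and estrogen, and by 0.024 to 0.277 between estrogen and placebo. The ranges were -0.260 to -0.080 between estrogen plus progesterone and progesterone, and -0.244 to -0.105 between progesterone and placebo. Over all pairs of groups, the median was 0.027 for same-numbered arrays and 0.012 for the others. No label pairs the monkeys, and the arrays were not taken as paired. The reported fit has no block. Other normalizations, filters, floors, variance models, probe set choices, a replicate block and fits without single arrays were tried.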

Additional observations from a re-analysis of the deposited data

Results flagged for a closer look

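The dimmer TAPBP probe set was singled out because the difference made by estrogen ran in opposite directions without and with progesterone: every estrogen array was below every placebo array, and every array of estrogen plus progesterone was above every progesterone array. The difference between these 2 differences was 0.68 on the log2 scale. The choice of TAPBP used the estrogen arrays that enter the first of them and the estrogen plus progesterone arrays that enter the second. The value is therefore given as a description, and the difference was not tested. On the brighter TAPBP probe set, the difference made by estrogen was 0.16 without and 0.25 with progesterone, both in the same direction.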

How the results depend on the processing

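Under the 22 alternatives, no member passed the adjusted p in the 3 tested comparisons, except that a variance trend on intensity called 1 for estrogen plus progesterone against progesterone, the dimmer B2M probe set (adjusted p 0.0316; 0.0316 to 0.556 over its alternatives). In the limma fit with a replicate block, 0 members passed the adjusted p, and that probe set differed by -0.75 (adjusted p = 0.107). Members past an unadjusted p of 0.05 for estrogen plus progesterone against placebo were 1 in place of 2 there. Of all probe sets, 35 (0 to 65) passed for progesterone against placebo and 22 (0 to 42) for estrogen plus progesterone against progesterone; with the block 20 and 19. Differences near 0 changed sign. The brighter B2M probe set gave 0.016 for estrogen plus progesterone against placebo, -0.057 for progesterone against placebo and 0.073 for estrogen plus progesterone against progesterone after median alignment. On the deposited scale alone, an alternative chosen after seeing the data, the first was 0.051 and the last 0.0017. Median alignment moved the median of all probe sets for progesterone against placebo to -0.12. For estrogen plus progesterone against placebo, TAP1 ran from -0.41 to 0.095 without single arrays and was 0.29 without the 3 arrays apart, and TAP2 ran from -0.047 to 0.12. The dimmer MAMU-E probe set ran from -0.11 to 0.086 for progesterone against placebo without single arrays and was 0.048 on the deposited scale. MAMU-AG depended on the third estrogen array (-5.01 for estrogen against placebo and 5.31 for estrogen plus progesterone against estrogen without it). The causes were not tested.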
